A study of Arabidopsis halleri and Arabidopsis lyrata subsp. petraea with 24 samples.

Results

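ZIP6 and ZIP9 are 2 genes of the ZIP family of metal transporters. They were taken by name, as probe set 267304_at for ZIP6 (Entrez gene 817559) and probe set 253413_at for ZIP9 (Entrez gene 829439), out of 13350 genes that the array annotation names with a probe set of their own. Both were read on 24 Affymetrix ATH1 arrays, whose probes were designed on Arabidopsis thaliana. The plants were Arabidopsis halleri, which tolerates zinc-rich soil and stores the metal in its shoot, and its relative Arabidopsis lyrata subsp. petraea (A. petraea below), all grown on full mineral medium in a growth room. The 8 groups of 3 arrays were whole root systems and rosette leaves of each species, from plants given 25 µM zinc (high zinc) and from plants without that treatment (control). How much zinc the control plants received is not stated in the labels. Separate plants or cultures are not stated for the 3 arrays of a group either, so the p-values cover array-to-array spread, which may be technical.

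ZIP proteins carry zinc, iron and other divalent metals across a membrane into the cytosol. In A. thaliana, several ZIP genes, ZIP9 among them, are switched on when zinc is short by the transcription factors bZIP19 and bZIP23, and ample zinc keeps them low. In A. halleri several metal transporter genes are known to have higher transcript levels than in relatives that do not accumulate zinc. The comparisons were between species, organs and zinc levels.

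The printed organ labels did not match organ marker genes. The leaf markers were RCA, PSAE-1, PRK and SBPASE, genes of photosynthesis, and the root markers were PYK10, EXPA7 and EXPA18, genes of root endoplasmic reticulum bodies and root hairs. Leaf minus root is the difference of their means on the log2(signal + 16) scale. By its sign, 9 of 24 arrays matched the organ printed in their title and 15 went against it. Arrays were therefore grouped in a second way, called text-order labels: the serial numbers in the titles were sorted as text, so that 10 follows 1 and comes ahead of 2, and each array took the group printed for the serial equal to its place in that order. No label states this order, and it was inferred with these data already examined. By text-order labels 23 of 24 arrays matched their organ, and the exception was A. petraea high zinc root array 2, where leaf minus root was 3.43. Across all probe sets tested, the closest other array was of the same species and organ for 22 of 24 arrays by text-order labels, against 5 of 24 by printed labels. It also shared the replicate number for 19 of 24 arrays by text-order labels and 4 of 24 by printed labels, and it was of the array's own group, zinc level included, for 1 of 24 arrays under each scheme. No marker used here checks the species labels or the zinc labels of either scheme. The counts of closest arrays would be the same with the species names exchanged, so they do not show which species is which. Only 1 array keeps the same group under both schemes, A. halleri control root array 1, which is also the 1 array labelled with another developmental stage. Every result below names the labels it rests on, and a result by text-order labels holds only as far as that inferred order does.

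By text-order labels, ZIP9 had its highest signals in A. halleri roots, and all but 1 of the other arrays lay below every A. halleri root array. In A. halleri roots the MAS5 signal (a linear intensity) was 1061, 352.8 and 94.1 in high zinc arrays 1, 2 and 3, and 827.1, 267.2 and 132.3 in control arrays 1, 2 and 3. In A. petraea roots it was 99.9, 48.6 and 29.9 in high zinc arrays and 77.1, 44.0 and 6.7 in control arrays. The lowest A. halleri root array lay just under the highest A. petraea root array, so these sides overlapped by 1 array each. In A. halleri leaves the signal was 74.7, 45.5 and 51.0 in high zinc arrays and 50.5, 32.7 and 52.0 in control arrays. In A. petraea leaves it was 47.7, 61.0 and 46.4 in high zinc arrays and 53.7, 52.0 and 49.3 in control arrays. No leaf array of either species reached the lowest A. halleri root array.

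**Figure D1:**
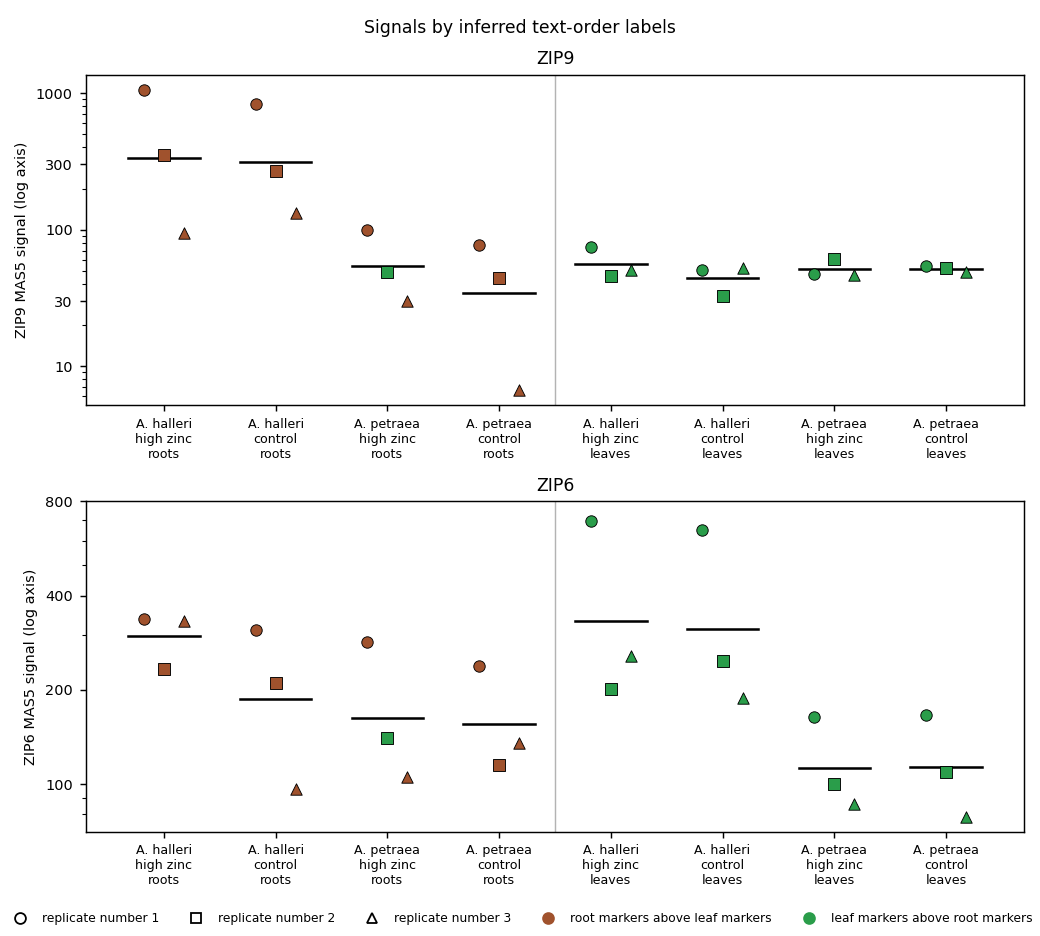
MAS5 signal (log axis) of ZIP9 (top) and ZIP6 (bottom) on 24 arrays grouped by text-order labels; each symbol is 1 array, its shape the replicate number, its colour the sign of leaf minus root markers, and the line the group mean of log2(signal + 16) turned back to a signal. ZIP9 stands at 94.1 to 1061 in A. halleri roots, against 6.7 to 99.9 elsewhere, and ZIP6 at 189 to 695.2 in A. halleri leaves, against 78.5 to 166.2 in A. petraea leaves.

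The species difference of ZIP9 in roots was 2.52 ± 0.45 on the log2(signal + 16) scale (A. halleri minus A. petraea over both zinc levels, SE from limma, 95% interval 1.57 to 3.46, adjusted p = 0.00239), a 5.73-fold higher value in A. halleri. In this comparison limma called 4.69% of the 17107 probe sets tested, 2.43% as higher in A. halleri. Means were 8.41 ± 1.32 in A. halleri roots and 5.89 ± 0.83 in A. petraea roots (SD, n = 6 each). The SE rests on 1 spread shared by all 8 groups. Group SDs of ZIP9 were 0.68 to 1.65 in the root groups and 0.05 to 0.29 in the leaf groups (n = 3 each). Its intervals and p-values for comparisons with roots may therefore be too small. At each of the 3 replicate numbers and both zinc levels A. halleri was higher, by 1.26 to 3.22 in 6 of 6 such matches. This follows from the signals above, where only 1 array of each species overlapped, and is no further support. No label ties the replicate numbers of the 2 species to each other. The call held in all 12 fits that left out 1 array (2.12 to 2.94), among them the fit without A. petraea high zinc root array 2, which carried leaf markers (2.49, adjusted p = 0.00631), and the fit without A. halleri control root array 1, of the other stage (2.18, adjusted p = 0.00737). With same-numbered arrays of a species and organ as a random block, added after the data were seen, limma's adjusted p was 0.00685 and 212 probe sets were called, against 802 without the block. That block used 1 correlation, 0.453, for all probe sets. In A. halleri roots, high zinc minus control at the same number was -0.43 to 0.38 for ZIP9, against a span of 2.90 between numbers. The pairing of ZIP9 itself may thus be stronger than the block allows, and the call was not tested against it. Beside this, A. halleri minus A. petraea was 0.08 for the mean of the root markers and -0.67 for that of the leaf markers. The root markers differed in sign, at -1.39 for PYK10, 1.04 for EXPA7 and 0.60 for EXPA18, none of them called. Leaf minus root ran from -3.51 to -0.10 in A. halleri roots and from -3.89 to 3.43 in A. petraea roots. The part of these markers in the result was not tested, apart from the fits above. Sequence differences from A. thaliana under the probes, in 1 species or both, can also alter a signal, and their part was not tested. In whole organs, fewer cells that express a gene and less RNA per cell cannot be told apart.

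In leaves the species difference of ZIP9 by text-order labels was -0.03 ± 0.45 (SE, 95% interval -0.98 to 0.91, adjusted p = 0.981). Means were 6.04 ± 0.29 in A. halleri leaves and 6.08 ± 0.11 in A. petraea leaves (SD, n = 6 each). The A. halleri leaf arrays, at 32.7 to 74.7, enclosed the A. petraea leaf arrays, at 46.4 to 61.0. These signals were near the medians of the 24 arrays, 43 to 71.5, and those of A. petraea roots, 6.7 to 99.9, spanned them. No detection call was used, and whether ZIP9 stood above background in these sets was not tested.

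Between organs, ZIP9 was 2.37 ± 0.45 higher in roots than in leaves of A. halleri by text-order labels (SE, 95% interval 1.42 to 3.31, adjusted p = 0.000448), with no overlap between the 6 root and 6 leaf arrays. With the random block, again with 1 correlation for all probe sets, limma's adjusted p was 0.00108. It called 4112 probe sets, against 6496 without the block. Here limma called 38.0% of probe sets, 25.6% as higher in roots, and root arrays lay above all leaf arrays for 13.6%, so a root difference of some size was common. In A. petraea the organ difference was -0.19 ± 0.45 (SE, 95% interval -1.13 to 0.76, adjusted p = 0.797), where 21.5% of probe sets were called (3679, or 1906 with the random block). The species difference in these organ differences, a contrast added after the data were seen, was 2.55 ± 0.64 (SE, 95% interval 1.22 to 3.89, unadjusted p = 7e-04, adjusted p = 0.0849) and was not called, while 0.520% of probe sets were. With the random block its adjusted p by limma was 0.221, and 22 probe sets were called against 89 without it. The root level of ZIP9 relative to leaves is thus not shown to differ between the species after adjustment over all probe sets. It passed in 2 of 24 fits that left out 1 array, those without A. halleri high zinc root array 3 (2.97, adjusted p = 0.0134) and A. halleri control root array 3 (2.84, adjusted p = 0.0417).

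The group means of ZIP9 by text-order labels had the order A. halleri high zinc roots (8.46), A. halleri control roots (8.36), A. halleri high zinc leaves (6.17), A. petraea high zinc roots (6.13), A. petraea control leaves (6.08), A. petraea high zinc leaves (6.07), A. halleri control leaves (5.92) and A. petraea control roots (5.65). Neighbours in this order overlapped in their arrays except at the step from A. halleri control roots to A. halleri high zinc leaves.

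ZIP9 varied widely among the A. halleri root arrays, and its level followed the organ markers there. By text-order labels, leaf minus root was -3.51, -2.33 and -0.10 in high zinc arrays 1, 2 and 3, and -3.30, -2.26 and -0.90 in control arrays 1, 2 and 3. The more the root markers exceeded the leaf markers, the higher was ZIP9 on all 6 arrays (Spearman's rho = -1.0, Pearson's r = -0.978). Same-numbered high zinc and control arrays lay close together in both measures, so the 6 arrays are not independent, and the correlations are a description with no test. Without the 2 arrays farthest from the median of leaf minus root, r was -0.992 for ZIP9. For ZIP6 on the same arrays r was -0.376, or -0.989 without those 2. The r of ZIP9 over all 6 arrays, -0.978, or a lower one was reached by 0.386% of the 17107 probe sets on these arrays. The part of root tissue make-up in the level of ZIP9 was not tested. In A. petraea roots rho was -0.657 for ZIP9 over 6 arrays, and r was -0.42, or -0.971 without the 2 farthest arrays, A. petraea high zinc root array 2 with its leaf markers among them.

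**Figure D2:**
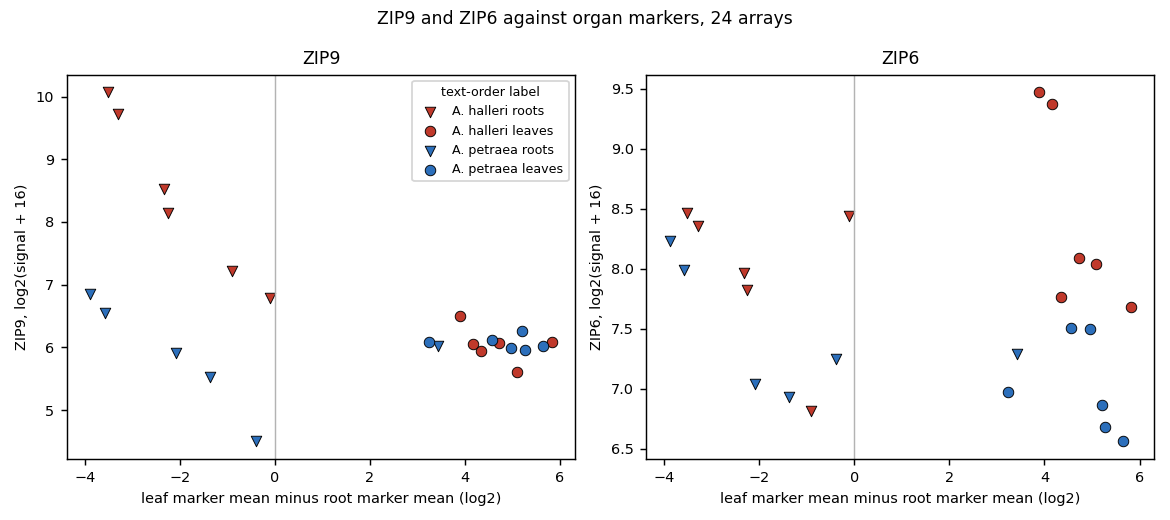
Log2(signal + 16) of ZIP9 (left) and ZIP6 (right) against leaf minus root markers (log2) on 24 arrays; triangles are roots and circles leaves, red A. halleri and blue A. petraea, by text-order labels. Across A. halleri root arrays, which span -3.51 to -0.10 in leaf minus root, ZIP9 is lower where that value is higher, and the leaf arrays of both species lie at 32.7 to 74.7.

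ZIP6 by text-order labels was higher in A. halleri leaves than in A. petraea leaves, with a call that did not hold in all fits. Its signal was 695.2, 201.2 and 255.8 in A. halleri high zinc leaves and 648.2, 246.5 and 189.0 in A. halleri control leaves. In A. petraea leaves it was 164.2, 100.1 and 86.4 in high zinc arrays and 166.2, 109.6 and 78.5 in control arrays. The arrays of the species did not overlap, a state that 2.03% of probe sets shared in this direction. The difference was 1.39 ± 0.36 (SE, 95% interval 0.65 to 2.13, adjusted p = 0.0214), or 2.62-fold, where limma called 6.06% of probe sets, 2.90% as higher in A. halleri. Means were 8.40 ± 0.81 in A. halleri leaves and 7.01 ± 0.40 in A. petraea leaves (SD, n = 6 each). That A. halleri was higher in 6 of 6 matches by replicate number and zinc level follows from the lack of overlap and adds nothing to it. The same difference was -0.21 for the mean of the leaf markers and -0.07 for that of the root markers. Single leaf markers ran from -1.29 for RCA to 0.59 for PSAE-1, and root markers from -0.60 for EXPA18 to 0.46 for EXPA7. The call was lost in 5 of 12 fits that left out 1 array (1.13 to 1.56 over all 12, adjusted p = 0.0156 to 0.0605). These were the fits without array 1 of A. halleri high zinc leaves (1.13) or control leaves (1.14), without array 2 or 3 of A. petraea high zinc leaves (1.35 and 1.31), and without array 3 of A. petraea control leaves (1.28). It was also lost with the random block (SE 0.40, limma's adjusted p = 0.0696, 383 probe sets called against 1037 without the block), so the call depends on counting same-numbered arrays as independent.

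In roots ZIP6 differed less clearly. By text-order labels its signal was 336.5, 233.5 and 331.7 in A. halleri high zinc roots and 311.5, 210.0 and 96.7 in the control roots of that species. Roots of A. petraea had 284.2, 139.9 and 105.6 in high zinc arrays and 238.8, 115.3 and 135.7 in control arrays. The species overlapped, with a difference of 0.52 ± 0.36 (SE, 95% interval -0.22 to 1.26, adjusted p = 0.436). The organ difference of ZIP6, roots minus leaves, was -0.43 ± 0.36 in A. halleri (SE, adjusted p = 0.355) and 0.44 ± 0.36 in A. petraea (SE, adjusted p = 0.391), and neither was called. The difference between these organ differences was -0.87 ± 0.50 (SE, adjusted p = 0.581).

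The group means of ZIP6 by text-order labels had the order A. halleri high zinc leaves (8.44), A. halleri control leaves (8.36), A. halleri high zinc roots (8.29), A. halleri control roots (7.66), A. petraea high zinc roots (7.48), A. petraea control roots (7.43), A. petraea control leaves (7.01) and A. petraea high zinc leaves (7.01). The A. halleri means all lay above the A. petraea means, and each neighbouring pair of groups overlapped in its arrays.

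Neither gene was called for a response to zinc under either set of labels. By text-order labels the change of ZIP9, high zinc minus control, was 0.10 ± 0.64 in A. halleri roots (SE, 95% interval -1.24 to 1.44), 0.25 ± 0.64 in A. halleri leaves, 0.48 ± 0.64 in A. petraea roots and -0.01 ± 0.64 in A. petraea leaves (adjusted p = 1, 1, 1 and 0.999). For ZIP6 the changes were 0.62 ± 0.50 in A. halleri roots (SE, 95% interval -0.42 to 1.67), 0.08 ± 0.50 in A. halleri leaves, 0.06 ± 0.50 in A. petraea roots and -0.0045 ± 0.50 in A. petraea leaves (adjusted p = 1, 1, 1 and 0.999). The zinc comparisons by text-order labels had few calls at all: limma called 0 probe sets in A. halleri roots, A. halleri leaves and A. petraea roots, with 322, 100 and 434 at an unadjusted p under 0.05, and 1 probe set (0.00585%) in A. petraea leaves. The species difference in zinc response was -0.38 ± 0.91 in roots and 0.26 ± 0.91 in leaves for ZIP9, and 0.57 ± 0.71 in roots and 0.08 ± 0.71 in leaves for ZIP6 (SE, adjusted p = 1 in each). The upper bound of the 95% interval was above 1 on the log2 scale for both genes in all 4 zinc comparisons by text-order labels. For ZIP9 the lower bound was -1.24 and -1.08 in A. halleri roots and leaves, and -0.86 and -1.34 in those of A. petraea. For ZIP6 the lower bounds were -0.42, -0.97, -0.99 and -1.05 in the same order. For ZIP9 the spread shared by all groups was also used here, so its root intervals may be too narrow.

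In several sets the arrays of a group differed more by replicate number than by zinc. In A. petraea leaves by text-order labels, same-numbered high zinc and control arrays differed in ZIP6 by -0.11 to 0.12 on the log2 scale, while the means of the 3 numbers spanned 0.88. In A. halleri leaves the high zinc minus control difference of ZIP6 ran from -0.27 to 0.41 and the numbers spanned 1.54, with array 1 high at both zinc levels. In A. halleri roots the high zinc minus control difference of ZIP9 ran from -0.43 to 0.38, against a span of 2.90 between numbers. An exception was ZIP6 on A. halleri root arrays 3, with 331.7 in high zinc and 96.7 in control, a difference of 1.63.

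By printed labels no comparison called either gene, and the values ran otherwise. ZIP9 in arrays printed A. halleri leaves was 267.2, 132.3 and 1061 in high zinc and 47.7, 61.0 and 46.4 in control arrays, without overlap, at a change of 2.40 ± 0.86 (SE, adjusted p = 0.0589). In that comparison 31.7% of probe sets lay higher without overlap and 17.2% were called in either direction. Root markers exceeded leaf markers on all 3 of those high zinc arrays and on 0 of the control arrays, so zinc and organ cannot be told apart there. In arrays printed A. halleri roots ZIP9 was 53.7, 52.0 and 49.3 in high zinc arrays and 827.1, 51.0 and 29.9 in control arrays, a change of -1.02 ± 0.86 (SE, adjusted p = 0.667, 0.0585% of probe sets called) that was 0.29 without control array 1. ZIP6 in arrays printed roots was lower in A. halleri (7.40 ± 0.71) than in A. petraea (8.50 ± 0.76, SD, n = 6 each) by a value of -1.09 ± 0.37 (SE, unadjusted p = 0.0082, adjusted p = 0.733). That sign is the reverse of the text-order one, and text order assigns all 6 arrays printed A. petraea roots to A. halleri, 2 of them to roots and 4 to leaves. By printed labels the species difference of ZIP9 was -0.0026 ± 0.61 in roots and 1.31 ± 0.61 in leaves (SE, adjusted p = 0.999 and 0.901). The zinc changes in A. petraea by printed labels were -1.06 ± 0.86 in roots and -0.34 ± 0.86 in leaves for ZIP9, and -0.20 ± 0.53 in roots and -0.01 ± 0.53 in leaves for ZIP6 (SE, adjusted p = 0.718, 1, 0.914 and 1), where limma called 0 probe sets, with 1194 in roots and 669 in leaves at an unadjusted p under 0.05. For each species and organ comparison by printed labels it called 0 probe sets (0%), with 247 to 2279 at an unadjusted p under 0.05. The species difference in the zinc response of arrays printed leaves was 2.74 ± 1.22 for ZIP9 (SE, adjusted p = 0.264), where 0.351% of probe sets were called.

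**Figure D3:**
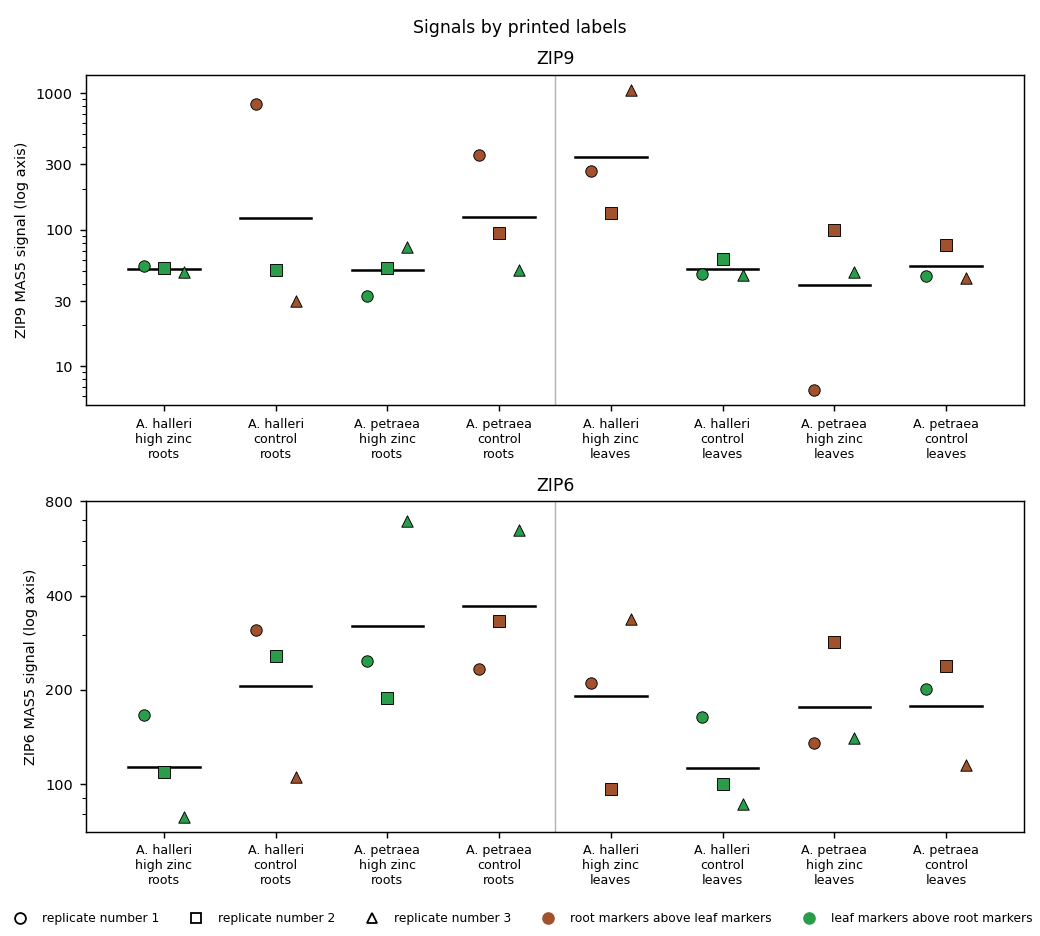
The same signals of 24 arrays (log axis) of ZIP9 (top) and ZIP6 (bottom) grouped by printed labels, with symbols, colours and lines as in the plot by text-order labels. Brown and green symbols, root-like and leaf-like by their markers, are mixed within 4 of the 8 groups, and ZIP9 signals of 827.1 and 29.9 fall in 1 group.

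**Figure D4:**
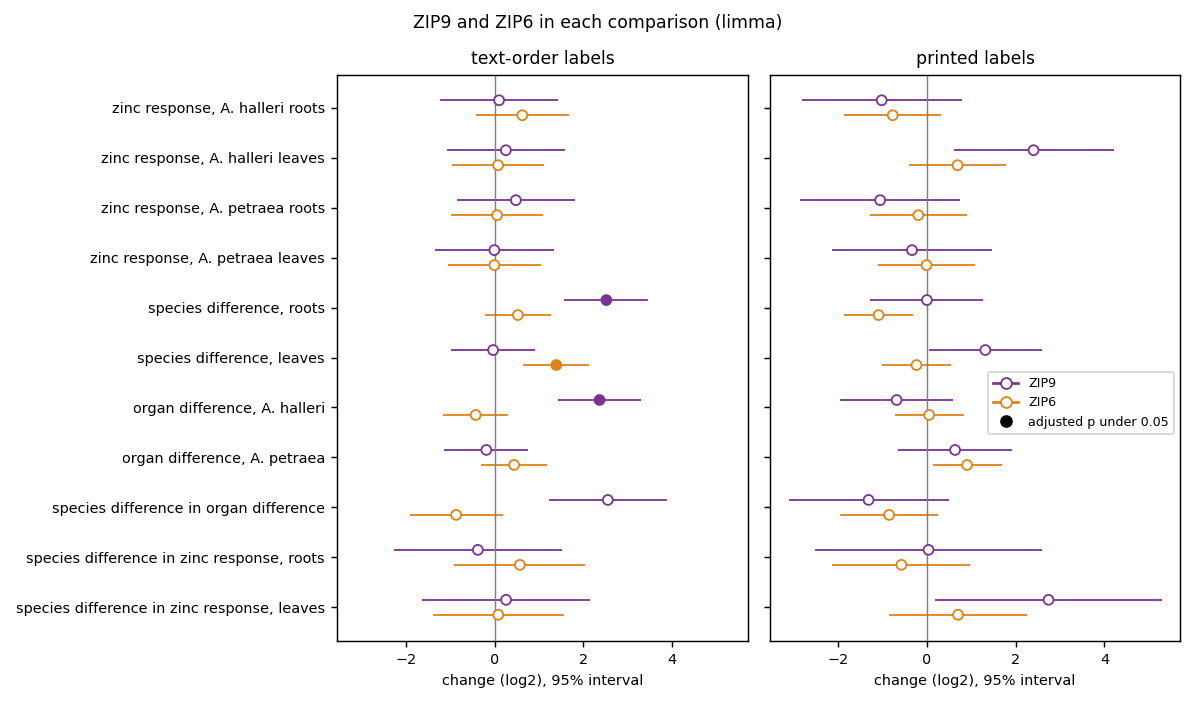
Change of ZIP9 (purple) and ZIP6 (orange) on the log2(signal + 16) scale with 95% intervals in 11 comparisons by text-order labels (left) and printed labels (right); filled symbols have an adjusted p under 0.05. ZIP9 is filled for the species difference in roots (2.52) and the organ difference in A. halleri (2.37), ZIP6 for the species difference in leaves (1.39), all by text-order labels and with arrays counted as independent, and no symbol is filled by printed labels.

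Of the other genes of zinc transport and sensing, few had a named probe set. Of 16 listed ZIP family genes only ZIP6 and ZIP9 were named, and of 3 listed transcription factors, bZIP19, bZIP23 and their relative BZIP24, the first and last were. None of 5 chelation genes was named, and of 9 efflux and vacuole genes 1 was named and 0 were tested. By text-order labels bZIP19 was lower in A. halleri leaves than in A. petraea leaves by a difference of -1.35 ± 0.27 (SE, adjusted p = 0.0037), where limma called 6.06% of probe sets. Its signals were 37.5 to 79.4 in high zinc and 41.8 to 74.4 in control arrays of A. halleri leaves, against 137.8 to 214.5 in high zinc and 121.2 to 219.4 in control arrays of A. petraea leaves. The species did not overlap, as 2.36% of probe sets did not in this direction. In roots the species difference of bZIP19 was -0.42 ± 0.27 (SE, adjusted p = 0.401). Within A. halleri, roots were above leaves for bZIP19 by 0.89 ± 0.27 (SE, adjusted p = 0.0131) and for BZIP24, known in A. thaliana from salt stress, by 0.75 ± 0.25 (SE, adjusted p = 0.0223). In this comparison limma called 38.0% of probe sets, 25.6% as higher in roots. In A. petraea the organ difference was -0.03 ± 0.27 for bZIP19 and 0.60 ± 0.25 for BZIP24 (SE, adjusted p = 0.944 and 0.0874). These factors were not read from the fit with the random block. Neither factor was called in a zinc comparison by text-order labels. By printed labels BZIP24 was called in 1 comparison, the zinc response in arrays printed A. halleri leaves (1.51 ± 0.38, SE, adjusted p = 0.0186), where zinc and organ cannot be told apart. There 17.2% of probe sets were called.

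The 2 genes did not share 1 pattern over the 24 arrays (Pearson's r = 0.347, Spearman's rho = 0.443, a description of arrays that share species and organ). Among 9559 other named genes tested, those with the pattern most like ZIP9 by Pearson's r over 24 arrays were AT3G54580 (0.885), AT5G19810 (0.868), AT1G59725 (0.863), AT3G43960 (0.861) and AT1G69526 (0.859), and the most opposite were AT2G26800 (-0.834), AT3G62860 (-0.822) and UGT87A2 (-0.814), a glucosyltransferase. Rank correlations of the first 2 of these with ZIP9 were lower, at 0.586 and 0.542. For ZIP6 the most alike were AT3G18280 (0.924, rho = 0.929), the autophagy gene ATG8D (0.885), AT2G34585 (0.879), AT4G32470 (0.862) and CYS1 (0.839), a cystatin, and the most opposite were AT3G26950 (-0.895), AT5G67290 (-0.847) and AT1G73430 (-0.834). These likenesses use no labels and are therefore the same under both schemes.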

How the data were processed

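The authors deposited 1 intensity for each probe set and array, made with MAS5 per the submitters' processing notes, and the range of the values shows no log transform. No MAS5 version or scaling target is stated there. Array medians ran from 43 to 71.5, and 20.6% to 27.8% of an array's signals were under 16. The number of arrays limits the precision, 3 in each group.

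Signals were taken as log2(signal + 16), which understates changes of dim genes. Probe sets in the lowest 25% by mean were left out, which kept 17107 of 22810, both members included. limma 3.58.1 in R 4.3.3 fitted 8 group means to all 24 arrays (eBayes with trend and robust settings, two-sided, Benjamini-Hochberg over all probe sets, threshold 0.05), once by printed and once by text-order labels. Each probe set had 1 estimate of spread, shared by all 8 groups. The fit was also run on simulated data with noise drawn independently for each array. By text-order labels same-numbered arrays were correlated, so that run cannot show how many calls here are false. Members, gene lists and text-order labels were chosen with earlier results of these data known. Named genes were the members, the list genes with a named probe set, and for each member the 5 genes of highest and 3 of lowest correlation over 24 arrays. The replicate number came from the titles, except that 2 arrays of A. halleri control roots print number 1, and the later serial is called 3. As a check, same-numbered high zinc and control arrays deviated together from their group means at all 3 numbers (r over 0.1) in A. petraea roots by printed labels and in 3 of 4 species and organ sets by text-order labels, all but A. petraea roots. The pairing is thus a reading of the values, not of the labels. The alternatives were other pseudocounts, no filter, quantile normalization, array weights, a replicate block, fixed for zinc comparisons and random for the others, and leaving out each array. Sequences were not used here.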

Additional observations from a re-analysis of the deposited data

Results flagged for a closer look

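ZIP9 on arrays printed A. halleri roots held 1 array far from the other 5. A. halleri control root array 1 had a signal of 827.1, while the others ran from 29.9 to 53.7, and its gap to the nearest array took 0.856 of the whole range on the log2(signal + 16) scale, above Dixon's limit for 6 arrays. Leaf minus root was -3.30 on this array, and it is the array labelled with another developmental stage. By text-order labels the set of A. halleri roots held no such array. Each member was looked at in 8 sets of 6 arrays, and chance alone flags about 1 set in 20.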

How the results depend on the processing

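The calls of ZIP9 for the species difference in roots and the organ difference in A. halleri, by text-order labels, held under every alternative run (leaving out 1 array gave 2.12 to 2.94 and 1.96 to 2.79). None of these alternatives tests the pairing of ZIP9 itself. The random block used 1 correlation for all probe sets, and leaving out 1 array keeps the other array of its number. That of ZIP6 for the species difference in leaves was lost in 5 of 12 fits without 1 array (1.13 to 1.56) and with a random replicate block, and held under the other alternatives run. Values with no call changed sign in 4 other fits, with the cause not tested: by printed labels with a pseudocount of 64, ZIP9 was 0.0571 for species in roots and -0.12 for the species difference in zinc response in roots, and by text-order labels its zinc response in A. petraea leaves was 0.0679 after quantile normalization and 0.0229 with array weights.

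With array weights 3 more values were called: ZIP6 (0.96) and ZIP9 (2.22) for zinc in arrays printed A. halleri leaves, and ZIP9 (2.54) by text-order labels for the species difference in organ difference, which also passed in 2 of 24 fits without 1 array (2.15 to 2.97). Array weights raised counts of called probe sets. By printed labels they became 22 for zinc in A. halleri roots (10 without weights), 8797 in A. halleri leaves (2949) and 3183 in A. petraea roots (0), 7 and 94 for species in roots and in leaves (0 each), 402 for organ in A. petraea (0), 118 for the species difference in organ difference (0) and 2881 for that in zinc response of leaves (60). By text-order labels they became 26 and 1 for zinc in A. halleri roots and leaves (0 each), 2826 and 2400 for species in roots and leaves (802 and 1037), 624 for the species difference in organ difference (89) and 1 for that in zinc response of leaves (0). With a pseudocount of 1, the printed species difference in zinc response of leaves had 35 calls, and zinc in A. petraea leaves by text-order labels had 0 (1 otherwise, 2 with no filter). With a pseudocount of 64, zinc had 17 calls in A. halleri roots by printed labels and 1 in A. halleri leaves by text-order labels.

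A replicate block pairing same-numbered high zinc and control arrays was fitted to the zinc comparisons, where ZIP6 and ZIP9 had no call without it and none with it. ZIP9 in A. halleri roots by text-order labels stayed at 0.10 (adjusted p = 0.999), and ZIP9 in arrays printed A. halleri leaves had an adjusted p of 0.0839. Counts became 1364 in arrays printed A. halleri leaves and 5 in A. petraea leaves by text-order labels. Such a block cannot estimate species and organ differences, so same-numbered arrays of a species and organ were also made a random replicate block, chosen after seeing the data, with 1 correlation for all probe sets (0.453 by text-order labels, 0.029 by printed labels). By text-order labels ZIP6 for species in leaves stayed at 1.39 and was no longer called (adjusted p = 0.0696), while ZIP9 for species in roots (adjusted p = 0.00685) and organ in A. halleri (adjusted p = 0.00108) still was. Counts became 212 and 383 for species in roots and leaves, 4112 and 1906 for organ in A. halleri and A. petraea, and 22 for the species difference in organ difference. By printed labels neither gene was called.

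Leaving out each array in turn gave the following ranges. By printed labels, ZIP6 ran from -0.17 to 0.26 for organ in A. halleri, and for zinc from -0.33 to 0.19 in A. petraea leaves and -0.74 to 0.19 in A. petraea roots. ZIP9 ran from -0.66 to 0.39 for species in roots, -0.76 to 1.34 for the species difference in zinc response of roots, and for zinc from -1.81 to 0.29 in A. halleri roots and -0.87 to 0.31 in A. petraea leaves. By text-order labels, ZIP6 ran for zinc from -0.44 to 0.58 in A. halleri leaves, -0.25 to 0.24 in A. petraea leaves and -0.32 to 0.34 in A. petraea roots, and from -0.43 to 0.59 for the species difference in zinc response of leaves. ZIP9 ran from -0.41 to 0.10 for organ in A. petraea, -0.12 to 0.0438 for species in leaves, -1.18 to 0.46 for the species difference in zinc response of roots, and for zinc from -0.70 to 0.94 in A. halleri roots, -0.10 to 0.0502 in A. petraea leaves and -0.0936 to 0.92 in A. petraea roots. Counts of called probe sets by printed labels ran from 528 to 1610 for zinc in A. halleri leaves, 0 to 15 in A. halleri roots, 0 to 1 in A. petraea leaves and 0 to 4 in A. petraea roots. They ran from 0 to 374 for organ in A. petraea, 0 to 3 for species in roots and in leaves, 0 to 20 for the species difference in organ difference and 20 to 73 for that in zinc response of leaves. By text-order labels they ran from 479 to 747 for species in roots, 66 to 147 for the species difference in organ difference and 0 to 2 for zinc in A. petraea leaves. The number of arrays, 3 in each group, limits all of these.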
